A study of Mus musculus with 6 samples.

Results

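The actin cytoskeleton and phagocytic cup genes are 52 mouse genes, of 55536 annotated genes with a row in the deposited tables, that were chosen by name for their known roles in building, remodelling and anchoring actin filaments. They are described here in 7 role groups: the actin monomers, the Arp2/3 complex, the nucleation promoters, the formins and Ena/VASP elongators, the severing, capping and turnover factors, the bundling and crosslinking proteins, and the membrane and adhesion linkers. The rule that names them uses no measured value, although they were chosen with earlier results of these data known.

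The RNA came from RAW264.7, a mouse macrophage-like cell line. One group of 3 libraries (Ti) came from cells given titanium particles, and the other group of 3 libraries (PBS) came from control cells given phosphate-buffered saline. The comparison asks how the transcripts of these cells differ when they meet such particles, which joint implants can release as they wear. The labels give C57BL/6 as the background strain of all 6 libraries, although RAW264.7 is generally described as a BALB/c-derived line. All libraries share the same cell line and no genetic change is named. Neither the dose of particles nor how long the cells were exposed is stated in the labels. The labels do not say that the replicates were separate cultures, so each p-value reflects only how far these samples differ from one another, and that spread may be technical.

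Macrophages take up particles by pushing a cup of membrane around them. WASP and WAVE family proteins activate the Arp2/3 complex, which starts new branches on existing filaments, while formins and Ena/VASP proteins lengthen unbranched filaments. Cofilin, gelsolin, coronin and the capping proteins take filaments apart or stop their growth, and filamin, alpha-actinin, plastin and the talin and ezrin families tie filaments to each other and to the membrane.

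The libraries held 37686020 to 48543436 rescaled counts in the Ti group and 41164142 to 60242937 in the PBS group. A floor of 3 counts corresponds to 0.0498 to 0.0796 CPM, counts normalised to library size, and it covers counting error only. Assembled transcripts without a gene name took 51.17% of the deposited total in Ti replicate 1 and 36.9 to 40.49% in the other libraries. All 8 macrophage markers (Ptprc, Adgre1, Cd68, Csf1r, Itgam, Lyz2, Spi1 and Fcgr1) were above that floor in every library. They summed to 5832 to 6561 CPM in the Ti libraries and 4786 to 6249 CPM in the PBS libraries. Lyz2, at 3745 to 5363 CPM, made up most of that sum. Single markers were uneven over the 6 libraries, with Csf1r at 144 to 1598 CPM and Itgam at 11.89 to 111.9 CPM. The 3 B cell markers were at 0 in all 6 libraries, and the summed fibroblast, T cell and epithelial markers reached at most 0.0536 CPM in the Ti libraries and 0.0625 CPM in the PBS libraries. Of the 4 osteoclast markers Calcr was at 0, and the list summed to 4.659 to 9.699 CPM in the Ti libraries and 7.381 to 10.22 CPM in the PBS libraries.

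The 2 actin genes expressed here, Actb (beta-actin) and Actg1 (gamma-actin), encode nearly the same protein from different genes. The first 60 coding bases of each are shown because reads can be assigned to one or the other only where the copies differ. Capitals mark the bases that differ between them, 9 of the 60 shown and 128 of all 1125 coding bases (88.62% identity). The sequences are the transcript strand from GENCODE vM21 (GRCm38), starting at chromosome 5 position 142905686 on the minus strand for Actb and at chromosome 11 position 120348091 on the minus strand for Actg1.
Actb: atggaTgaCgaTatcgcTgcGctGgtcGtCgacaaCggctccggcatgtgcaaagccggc
Actg1: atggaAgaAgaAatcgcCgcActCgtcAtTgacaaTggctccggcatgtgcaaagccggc

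Actin genes can respond to serum response factor, which binds the CArG box. The region before Actg1 is shown because the level of the gene lay above the PBS libraries in all 3 Ti libraries, and that before the Wipf1-203 start because this transcript had the largest log2 fold change in size among the 6 member transcripts with the smallest p. Both are RefSeq promoter sequences on the minus strand of GRCm38.p6, with annotated exon bases left out: Actg1 at chr11:120348543-120348695 and Wipf1 at chr2:73485764-73485953. Capitals mark a CArG box, 90 to 81 bases before the RefSeq start of Actg1 (-90 to -81). That start is also the start of the minor transcript Actg1-208, which was lower in the Ti libraries, and lies 404 bases from the annotated start of the main transcript Actg1-204. As annotated, Actg1-204 begins at its first coding base (120348091), with no bases before the coding sequence. The distance therefore does not show that the main transcript starts elsewhere, and which transcripts begin at the RefSeq start was not tested.
Actg1 promoter: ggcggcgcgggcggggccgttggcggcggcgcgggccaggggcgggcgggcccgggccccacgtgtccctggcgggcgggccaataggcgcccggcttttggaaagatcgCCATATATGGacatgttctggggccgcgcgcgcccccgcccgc
Wipf1-203 promoter: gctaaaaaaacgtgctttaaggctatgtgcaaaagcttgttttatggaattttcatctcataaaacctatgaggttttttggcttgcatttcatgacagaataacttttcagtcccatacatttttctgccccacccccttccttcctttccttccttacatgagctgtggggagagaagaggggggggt

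A RefSeq start was found for 45 of the 52 members, Actb not among them. For some it lay far from the start of the gene's most abundant transcript. The distance was 79395 bases for Enah, 53904 for Lcp1, 29944 for Evl, 5110 for Capg and 4178 for Fscn1. The motif search there does not cover the start of that transcript. In the 250 bases before the RefSeq start, on both strands, a CArG box stood in 3 of the 45 (Actg1, Arpc4 and Vcl). It stood in 1.47% of 32851 mouse starts. The log2 fold change of Ti over PBS was 0.305 for Actg1, -0.21 for Arpc4 and -0.327 for Vcl. Whether the box bears on these values was not tested. A kappaB motif stood in 7 of the 45 and in 7.25% of all starts. An AP-1 motif (TGANTCA) stood in 4 of the 45 and in 6.75% of all starts. These are matches of letters and not measured binding.

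No member passed the test between Ti and PBS, and the members nearest to it were Actn1 and Marcksl1, which had higher values in Ti, and Wipf1, which had lower values. After a filter on low counts 48 members were tested among 15376 genes, with edgeR's quasi-likelihood test and Benjamini-Hochberg adjustment over all genes at 0.05. The test called 0 of the 48 members and 4 of all genes (0.026%). The lowest adjusted p of a member was 0.1572. At an unadjusted p under 0.05 there were 7 members, 4 higher and 3 lower in Ti, against 6.76% of all genes (3.42% higher and 3.34% lower). In bulk RNA, a change in the number of cells of a kind and a change of RNA per cell cannot be told apart.

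The log2 fold change of Ti over PBS was above 0 for 21 of the 48 members and below 0 for 27. Its median was -0.04 over the members and 0.005 over all genes tested. In the unpaired model its 95% interval lay within 1 log2 unit of 0 for 34 members and within 0.5 for 17. The same held for 55.4% and 20.8% of all genes tested. At a mean of at least 50 CPM it held for 79.5% and 43.6% of members, against 84.6% and 53.8% of all such genes. DESeq2, run as an alternative, called 3 members, Actn1, Marcksl1 and Wipf1, against 1.9% of all genes.

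**Figure D1:**
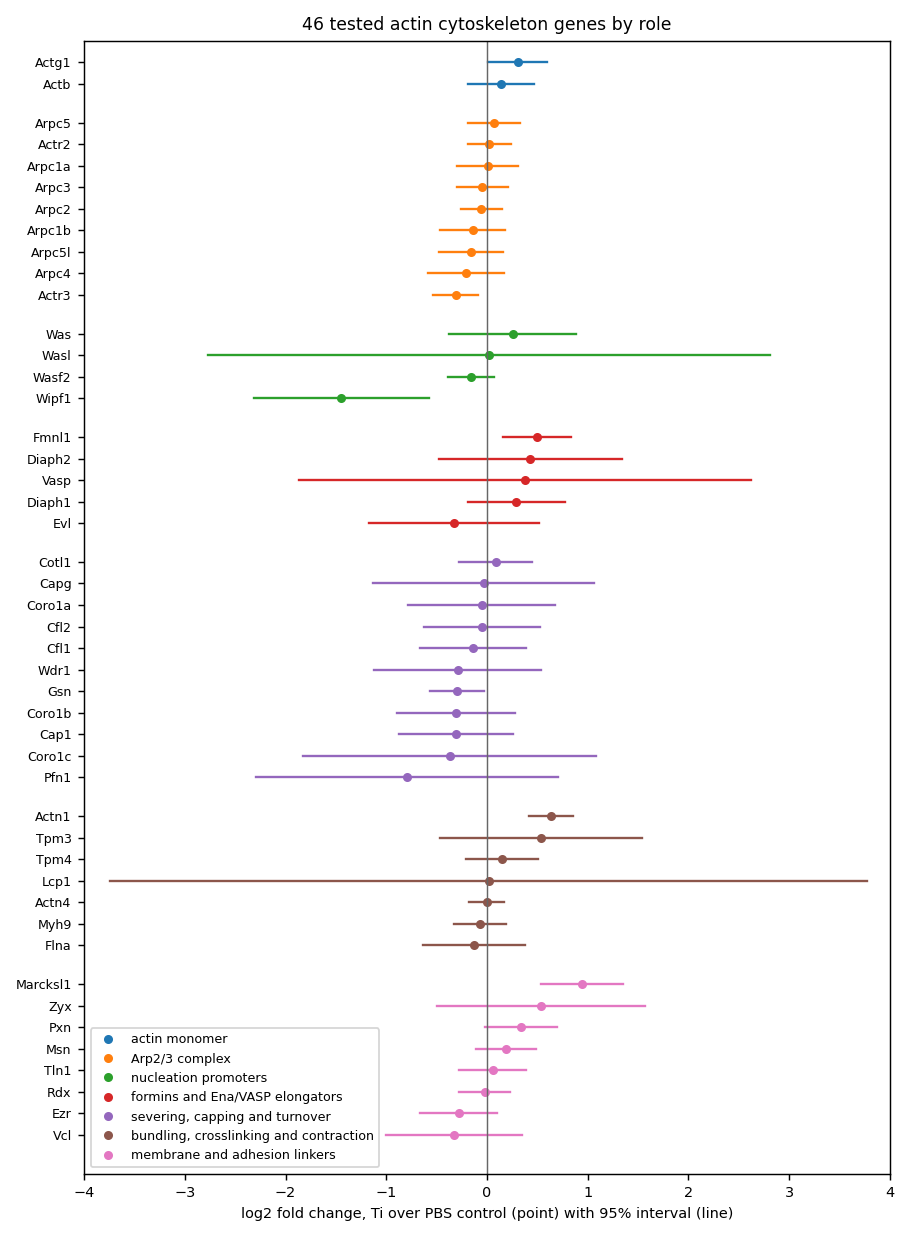
The log2 fold change of Ti over PBS (horizontal axis, points) with its 95% interval (lines) is plotted for 46 of the tested members, one per row, coloured by role. The 9 Arp2/3 subunits cluster near 0, Wipf1 at -1.45 and Marcksl1 at 0.94 stand farthest out, and the intervals of Lcp1, Wasl and Vasp are the widest.

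The 3 libraries of one group did not overlap those of the other for 11 of the 48 members, 6 higher and 5 lower in Ti. The same held for 13.3% of all genes tested (6.63% higher and 6.71% lower). Among genes with a mean of at least 50 CPM it held for 9 of 39 members and for 15.7% of 3650 genes. The members higher in every Ti library were Actn1, Marcksl1, Fmnl1, Actg1, Pxn and Diaph1. Wipf1, Actr3 and Gsn were among those lower in every Ti library.

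Levels were compared between genes per transcript length, as the deposited value over the genomic span, scaled to the same total in each library as CPM (length-scaled CPM). Actb had the highest mean, 1815 length-scaled CPM, followed by Lcp1 at 625.2, Actg1 at 623.9, Capg at 609.1, Arpc2 at 568.5, Cfl1 at 394.2, Actr2 at 360.7 and Cap1 at 339.4. Lcp1 and Capg were uneven between libraries, as described with their groups. On this scale Lcp1 had 1005, 825.1 and 59.96 length-scaled CPM in Ti replicates 1 to 3, against 896.4, 907.7 and 56.67 in PBS. The ranges of Actg1 (526.6 to 798.6), Arpc2 (480.2 to 622.2) and Capg (385.5 to 973.6) overlapped over the 6 libraries, so their order does not go beyond the spread between samples. The 52 members together made up 1.114, 0.8341 and 1.103% of the annotated per-length level in Ti replicates 1 to 3, against 0.9719, 0.9392 and 1.088% in PBS.

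**Figure D2:**
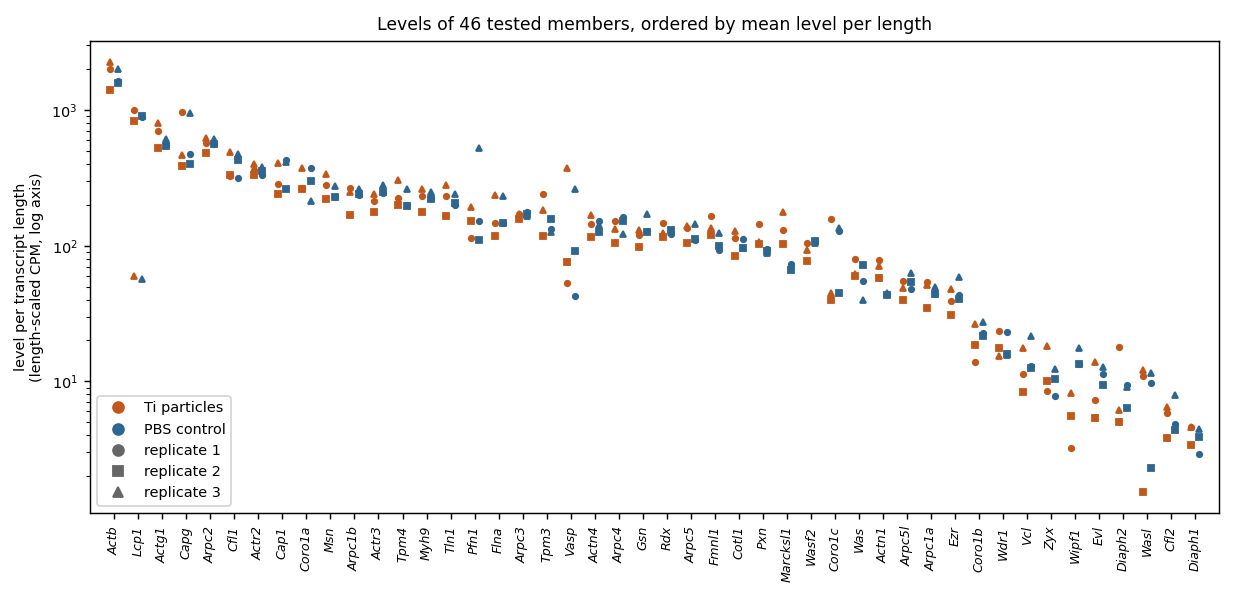
The level per transcript length (vertical log axis, length-scaled CPM) is plotted for 46 of the tested members in order of their mean, with one point for each of the 3 Ti and 3 PBS libraries. Actb stands alone at the top with a mean of 1815 length-scaled CPM, and the low points of Lcp1 near 60 length-scaled CPM are Ti replicate 3 and PBS replicate 3.

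Among the actin monomers, Actg1 had 889.9, 793.3 and 1056 CPM in the Ti libraries, against 733.6, 732.2 and 751 CPM in the PBS libraries. Every Ti library lay above every PBS library, by the least in Ti replicate 2. On the log2 scale the fold change was 0.31 ± 0.12 (SE), with an unadjusted p of 0.04376 and edgeR adjusted p = 0.7314. Actb had 1948, 1663 and 2284 CPM in Ti, against 1726, 1724 and 1903 CPM in PBS, and the groups overlapped. Its log2 fold change was 0.14 ± 0.13. Both actins were highest in Ti replicate 3 and lowest among the Ti libraries in replicate 2. This order was not particular to the actins, since Msn and Tln1 also had it, while others such as Fmnl1 did not.

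The share of Actg1 in the summed per-length level of both actins was 25.88, 27.23 and 26.15% in the Ti libraries, against 25.46, 25.52 and 23.53% in the PBS libraries. The groups did not overlap, although the gap between the nearest libraries was small. The exact two-sided permutation p was 0.1, the smallest that 3 against 3 can give, and this ratio was chosen after its values were seen. Actg1 was mostly the transcript Actg1-204. A minor retained-intron transcript, Actg1-208, had 1.825, 3.27 and 2.395 CPM in Ti, against 7.471, 5.165 and 4.382 CPM in PBS. For that transcript the log2 fold change was -1.21 ± 0.36 with an adjusted p of 1 over all transcripts, so the small and the major transcript of this gene lay in opposite directions. Where one gene has many similar copies, as the actins do, how the authors' estimate split shared reads is not known.

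The Arp2/3 complex, which nucleates branched actin, lay close to 0 across its subunits. Of its 9 genes 3 had positive and 6 negative log2 fold changes, between -0.31 and 0.07 with a median of -0.06, and all 9 intervals lay within 1 log2 unit of 0. Without both libraries numbered 3 the median was -0.11, with 1 positive and 8 negative. Its per-length sum was 1982, 1596 and 2057 length-scaled CPM in Ti, against 1922, 1944 and 2071 in PBS. Arpc2, a core subunit and the most abundant of them per length, had 596.5, 609.6 and 665.8 CPM in Ti, against 659.2, 659.8 and 625.9 CPM in PBS. Those values overlapped, with a log2 fold change of -0.06 ± 0.08.

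Actr3, the actin-related protein Arp3, was the exception within the complex. It had 385.1, 385.4 and 445.2 CPM in Ti, against 501, 502.4 and 506.1 CPM in PBS. Every Ti library lay below every PBS library, and the PBS libraries were nearly equal. This gave a log2 fold change of -0.31 ± 0.09, with an unadjusted p of 0.01341 and edgeR adjusted p = 0.5356. Its partner Actr2 (Arp2) had 943.4, 1050 and 1059 CPM in Ti, against 969.8, 1046 and 986.2 CPM in PBS, with a log2 fold change of 0.02 ± 0.09.

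The ratio of Actr3 to Actr2 per length was 0.5853, 0.5336 and 0.6044 in Ti, against 0.7362, 0.6919 and 0.7328 in PBS. The ranges did not overlap, and the mean was 0.5744 ± 0.0366 in Ti and 0.7203 ± 0.0247 in PBS (SD, n = 3 each, exact two-sided permutation p = 0.1, the smallest possible). This ratio too was chosen after its values were seen. Nearly all of Actr3 was Actr3-202, which had 373.6, 373.1 and 432.6 CPM in Ti, against 490.2, 490.1 and 494.7 CPM in PBS.

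Among the 4 nucleation promoters, Wipf1 differed most. It encodes WIP, which binds and stabilises the Wiskott-Aldrich protein WASP. Wipf1 had 8.519, 19.31 and 21.94 CPM in Ti, against 43.42, 41.39 and 51 CPM in PBS. All 3 Ti libraries lay below all PBS libraries, lowest in Ti replicate 1, and the highest Ti library still lay under the lowest PBS library by a wide margin. Between the groups the log2 fold change was -1.45 ± 0.36, with an unadjusted p of 0.006318 and edgeR adjusted p = 0.4313. DESeq2 gave an adjusted p of 0.01419.

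The difference in Wipf1 lay mostly in the transcript Wipf1-203. It had 5.196, 6.119 and 5.02 CPM in Ti, against 42.06, 19.92 and 49.05 CPM in PBS. The Ti libraries were close to each other and far below all PBS libraries, of which replicate 2 was the lowest. Its log2 fold change was -2.77 ± 0.37, with edgeR adjusted p = 0.1811 over 41599 transcripts. Wipf1-201 had 2.342, 11.33 and 12.52 CPM in Ti, against 0.7721, 16.74 and 1.134 CPM in PBS, and its groups overlapped.

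The 2 Wipf1 transcripts share 6 of their 8 exons and have the same coding sequence of 1479 bases. They begin 43971 bases apart on the minus strand of chromosome 2 (GRCm38), Wipf1-201 at 73529734 and Wipf1-203 at 73485763. The start of Wipf1-203 is the one whose upstream sequence is printed above, which held none of the 3 motifs searched. In PBS replicate 2, where Wipf1-203 was lowest among the controls, Wipf1-201 was highest, so the control sum of the gene varied less than either transcript.

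The other nucleation promoters gave smaller differences. Wasf2, a WAVE protein, had 376.9, 320.3 and 350.3 CPM in Ti, against 407.4, 387.7 and 373.9 CPM in PBS, and the ranges just overlapped. For this gene the log2 fold change was -0.16 ± 0.09. Was (WASP itself) ranged from 98.14 to 122.9 CPM in Ti and from 61.36 to 123.8 CPM in PBS. Wasl (N-WASP), named after its values were seen, had 32.36, 1.821 and 34.65 CPM in Ti, against 32.51, 3.516 and 31.78 CPM in PBS. Both libraries numbered 2 were low, and the log2 fold change of 0.02 ± 1.15 has a 95% interval of -2.77 to 2.81.

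**Figure D3:**
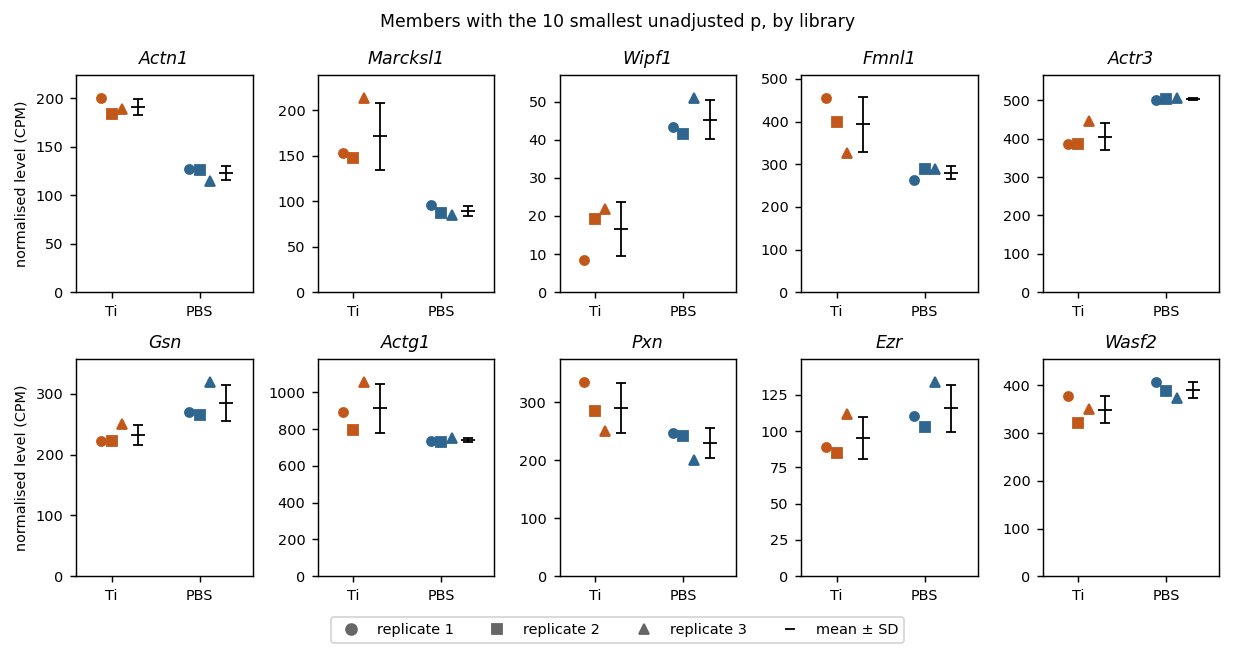
The level in CPM (vertical axes, each from 0) of the 10 members with the smallest unadjusted p is plotted for the 3 Ti libraries (left in each panel) and the 3 PBS libraries (right), with the mean and SD. In the first 8 panels (Actn1, Marcksl1, Wipf1, Fmnl1, Actr3, Gsn, Actg1 and Pxn) the groups do not overlap, and in the Ezr and Wasf2 panels they do.

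Of the 7 formins and Ena/VASP elongators 5 were tested, 4 with positive and 1 with a negative log2 fold change (median 0.38). Without PBS replicate 1 the median was 0.16, with 3 positive and 2 negative. Fmnl1, a formin found mainly in blood cells, had 455.7, 399.8 and 327.3 CPM in Ti, against 262, 288.1 and 289.3 CPM in PBS. All Ti libraries lay above all PBS libraries, and Ti replicate 3 was the nearest to them. Ti over PBS gave a log2 fold change of 0.49 ± 0.14 with an unadjusted p of 0.01111 and edgeR adjusted p = 0.4978.

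The transcripts of Fmnl1 did not share this pattern across the Ti libraries. Fmnl1-202 had 374.6, 314.6 and 82.35 CPM in Ti, against 89.06, 72.66 and 79.7 CPM in PBS. Fmnl1-203 had 0, 0 and 81.82 CPM in Ti, against 43.47, 105.2 and 64.21 CPM in PBS. Ti replicates 1 and 2 thus held one composition, and Ti replicate 3 resembled the PBS libraries. The 2 transcripts share 24 exons, and 2 coding segments are found in only one of them. Fmnl1-207 had 77.16, 82.45 and 98.1 CPM in Ti, against 97.89, 84.37 and 90.13 CPM in PBS, so it overlapped.

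Diaph2, a diaphanous formin, was chosen after its transcript values were seen. The gene had 51.18, 23.28 and 21.94 CPM in Ti, against 29.04, 18.85 and 23.61 CPM in PBS, which overlapped (log2 fold change 0.43 ± 0.38). Its transcript Diaph2-202 had 11.02, 16.93 and 14.6 CPM in Ti, against 4.349, 4.1 and 4.297 CPM in PBS. Every Ti library stood well above the closely spaced PBS libraries, at a log2 fold change of 1.72 ± 0.24 (edgeR, adjusted p = 0.2061). Diaph2-201 had 38.33, 4.737 and 5.394 CPM in Ti, against 23.24, 13.41 and 18.1 CPM in PBS, so it was highest in Ti replicate 1 and lay below every PBS library in Ti replicates 2 and 3. Diaph2-202 is longer, with 8196 exonic bases against 3742 for Diaph2-201, and their coding sequences have 3294 and 3306 bases.

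Diaph1, also named after its values were seen, was low, with 4.592, 4.795 and 5.074 CPM in Ti, against 3.236, 4.264 and 4.338 CPM in PBS, and a log2 fold change of 0.29 ± 0.20. Vasp, which keeps filament ends growing, was high in both libraries numbered 3. It had 79.91, 140.8 and 603.3 CPM in Ti, against 69.36, 159.9 and 404.5 CPM in PBS, and the groups overlapped. Its log2 fold change was 0.38 ± 0.92. Evl had 6.616 to 15.29 CPM in Ti and 10.92 to 12.99 CPM in PBS. Enah was not tested, with 0.0268 to 0.0624 CPM in Ti and 0 to 0.0499 CPM in PBS. Fmnl2 was not tested either, with 0 to 0.1287 CPM in Ti and 0 CPM in all PBS libraries.

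Of the 11 severing, capping and turnover genes 10 had a negative log2 fold change (median -0.29), and 1 of them, Gsn, had an unadjusted p under 0.05. Using only protein-coding transcripts left 8 negative, with a median of -0.05, and leaving out both libraries numbered 3 left 7. The median was -0.10 without Ti replicate 2 and -0.14 without PBS replicate 1, each with 8 negative. Gsn encodes gelsolin, a calcium-dependent severing and capping protein. It had 222.7, 222.6 and 251.2 CPM in Ti, against 270.7, 265 and 319.6 CPM in PBS. All Ti libraries lay below all PBS libraries, and replicate 3 was highest in both groups. On the log2 scale the fold change was -0.30 ± 0.11 with an unadjusted p of 0.03632 and edgeR adjusted p = 0.6945.

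Cfl1, cofilin, which severs older filaments, had 255, 287.3 and 383.6 CPM in Ti, against 262.9, 401.3 and 354.9 CPM in PBS (log2 fold change -0.14 ± 0.22). Cap1, which helps recycle actin monomers, had 496.2, 508.9 and 711.3 CPM in Ti, against 879.9, 524.7 and 716.7 CPM in PBS (-0.31 ± 0.23). Both genes overlapped between the groups. Pfn1, profilin, which feeds monomers to growing ends, had 61.63, 101.4 and 110 CPM in Ti, against 90.51, 66.33 and 315.6 CPM in PBS. Its log2 fold change of -0.79 ± 0.62 rests on PBS replicate 3, without which it was 0.22. The transcript Pfn1-201 had 223.6 CPM in that library and at most 25.15 CPM in any other.

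Capg, a capping protein abundant in macrophages, was high in 1 library of each group. It had 834.9, 358.4 and 353.8 CPM in Ti, against 416, 369.5 and 798.3 CPM in PBS, with a log2 fold change of -0.03 ± 0.45. The transcript Capg-203 had 554 CPM in Ti replicate 1 and 548.9 CPM in PBS replicate 3, and 0.7525 to 1.252 CPM in the other libraries. Capg-201 was low in the same 2 libraries, at 20.39 CPM in Ti replicate 1 and 15.97 CPM in PBS replicate 3. These transcripts share 8 exons and the same coding sequence of 1047 bases, so they differ outside it.

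Coro1c, a coronin named after its values were seen, had 359.6, 113.4 and 107.5 CPM in Ti, against 323.7, 120.2 and 307.6 CPM in PBS. For this gene the log2 fold change was -0.37 ± 0.60. The transcript Coro1c-205, of the nonsense-mediated decay class, had 277.5, 0 and 0 CPM in Ti, against 251, 0 and 234.7 CPM in PBS. The gene was thus high in the 3 libraries in which this transcript was listed above 0. The remaining 5 genes of the group (Cfl2, Wdr1, Cotl1, Coro1a and Coro1b) overlapped between the groups.

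Such uneven values were not confined to this group. With a PBS mean of at least 5 CPM, 8 members had a highest library at least 3 times the lowest: Coro1c, Lcp1, Pfn1, Tpm3, Vasp, Wasl, Wipf1 and Zyx. In all of them but Wipf1 the Ti and PBS ranges overlapped. The share of all genes tested that were this uneven is not given here, so the count does not set the members apart.

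**Figure D4:**
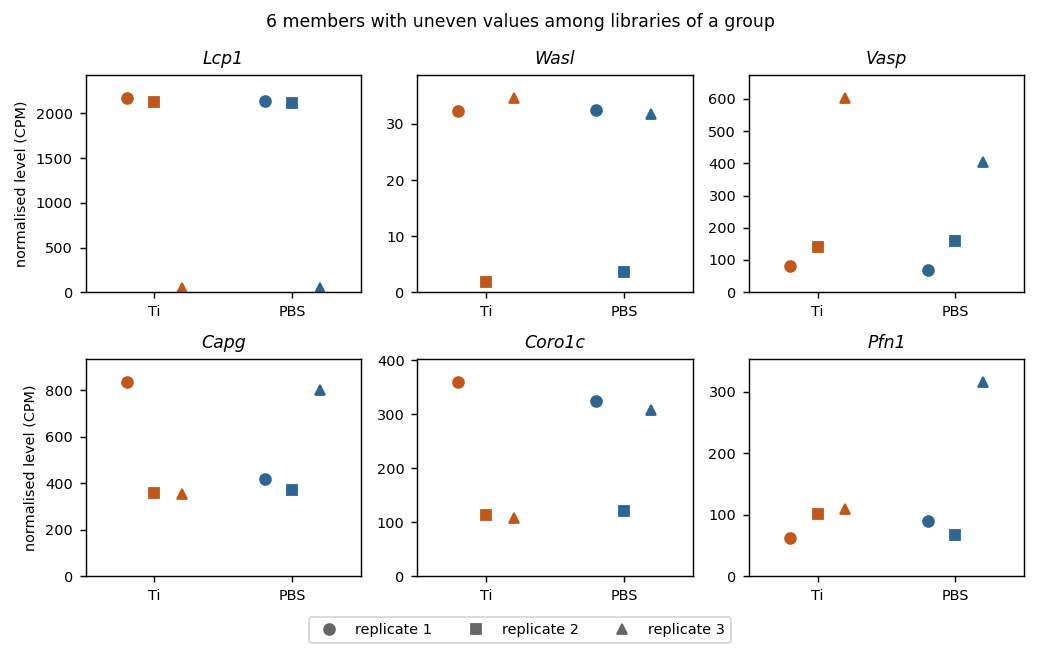
The level in CPM (vertical axes, each from 0) of 6 members is plotted for the 3 Ti libraries (left) and 3 PBS libraries (right), with the symbol giving the replicate number. Lcp1 is near 50 CPM in both libraries numbered 3, Wasl is low in both numbered 2, and Capg is high in Ti replicate 1 and PBS replicate 3.

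Among the bundling and crosslinking genes, Actn1 had the smallest p of all 52 members. It encodes alpha-actinin-1, which crosslinks filaments and links them to adhesions. Actn1 had 200.3, 183.6 and 189 CPM in Ti, against 127.2, 126.2 and 114.7 CPM in PBS. The libraries of each group lay close together and the groups were far apart. The fold was 1.556 (log2 fold change 0.64 ± 0.09, 95% interval 0.42 to 0.86), with an unadjusted p of 0.000349 and edgeR adjusted p = 0.1572. DESeq2 gave an adjusted p of 3.155e-06. The log2 fold change stayed between 0.60 and 0.66 over 15 alternatives.

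Actn4, the second alpha-actinin expressed here and named after its values were seen, lay at the same level in both groups. It had 380.4, 384.3 and 384.1 CPM in Ti, against 376.1, 390.1 and 385.5 CPM in PBS. Its log2 fold change was -0.004 ± 0.072 with a 95% interval of -0.18 to 0.17, and its sign changed with the scaling. Whether the 2 alpha-actinins differ in response was not tested.

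Lcp1, the leukocyte bundling protein L-plastin, had 2174, 2126 and 50.37 CPM in Ti, against 2140, 2116 and 44.05 CPM in PBS. Both libraries numbered 3 were lower than the others by a factor of up to 49.35, and within each number the groups were close. The transcript Lcp1-206 had 2.247 CPM in Ti replicate 3 and 1.955 CPM in PBS replicate 3, against at least 1954 CPM in the other libraries. The retained-intron transcript Lcp1-210 kept 21.41 CPM in Ti replicate 3 and 20.03 CPM in PBS replicate 3, near its 15.04 to 18.81 CPM elsewhere. Without both libraries numbered 3, the log2 fold change of Lcp1 was 0.02.

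Tpm3, a tropomyosin named after its values were seen, had 240.9, 152.5 and 225.9 CPM in Ti, against 154, 206 and 67.06 CPM in PBS, with a log2 fold change of 0.54 ± 0.41. Its transcript Tpm3-201 had 129.4, 12.14 and 117.8 CPM in Ti, against 0, 105.2 and 0 CPM in PBS, so it was uneven in both groups. Flna (filamin A), Myh9 (non-muscle myosin heavy chain) and Tpm4 overlapped between the groups. Flna had 747.6 to 1177 CPM in Ti and 895 to 1140 CPM in PBS, and Myh9 had 1102 to 1373 CPM in Ti and 1255 to 1285 CPM in PBS. Fscn1 (fascin) was not tested, with 0.0208 to 0.3862 CPM in Ti and 0 to 0.297 CPM in PBS.

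Of the 9 membrane and adhesion linkers 8 were tested, 5 with positive and 3 with negative log2 fold changes (median 0.12). The median was 0.26 without Ti replicate 2, 0.05 without Ti replicate 3, 0.23 without PBS replicate 3, and 0.03 without both libraries numbered 3, then with 4 positive and 4 negative. Marcksl1 had the largest positive log2 fold change of the 48 tested members. It encodes a relative of MARCKS that binds the inner membrane and actin. Marcksl1 had 153.3, 147.3 and 213.9 CPM in Ti, against 96.1, 86.68 and 85.23 CPM in PBS. Every Ti library lay above every PBS library, and Ti replicate 3 was highest. The fold was 1.92 (log2 fold change 0.94 ± 0.17), with an unadjusted p of 0.00124 and edgeR adjusted p = 0.2354. DESeq2 gave an adjusted p of 0.000921.

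Marcks itself was not tested, with 0.0536 to 0.4783 CPM in Ti and 0 to 0.1678 CPM in PBS. Pxn, the adhesion adaptor paxillin, had 334.8, 285.1 and 249.6 CPM in Ti, against 247.5, 241.2 and 199.5 CPM in PBS. The groups did not overlap, by a narrow gap between Ti replicate 3 and PBS replicate 1, and the log2 fold change was 0.34 ± 0.15, with edgeR adjusted p = 0.7579. Within Pxn, the protein-coding transcript Pxn-202 had 63.83, 69.39 and 59.41 CPM in Ti, against 41.05, 49.95 and 43.9 CPM in PBS, which did not overlap. The larger, retained-intron transcript Pxn-210 had 245.6, 199.8 and 180.2 CPM in Ti, against 195.9, 176.4 and 141.3 CPM in PBS, which did.

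Ezr, Msn and Rdx encode ezrin, moesin and radixin, which tie actin to the membrane. Ezr had 88.75, 84.83 and 111.6 CPM in Ti, against 110, 103.1 and 133.8 CPM in PBS (log2 fold change -0.28 ± 0.16). Msn, the most abundant linker per length, had 762.8, 734.3 and 953.8 CPM in Ti, against 696, 703.7 and 751.8 CPM in PBS (0.19 ± 0.12). The groups overlapped for both. Rdx ranged from 358.9 to 412 CPM in Ti and from 357 to 416.7 CPM in PBS. Talin (Tln1) had 1217 to 1712 CPM in Ti and 1336 to 1428 CPM in PBS, and vinculin (Vcl) 38.54 to 68.67 CPM in Ti and 53.16 to 80.39 CPM in PBS. Ezr and Vcl were both lower in the Ti library in each of the 3 same-numbered pairs. With the replicate block the log2 fold change of Ezr was -0.28 ± 0.07 with an unadjusted p of 0.01378, against 0.1208 unpaired. That of Vcl was -0.35 ± 0.09 with 0.02068, against 0.2832 unpaired. The edgeR adjusted p with the block was 0.4319 for Ezr and 0.4677 for Vcl, so neither was called. Pxn too had a lower unadjusted edgeR p with the block, 0.01023 against 0.05877 in the main unpaired fit. Some unpaired alternatives also gave an unadjusted edgeR p under 0.05, and others did not. It was 0.004791 for Pxn with protein-coding transcripts only and 0.03631 for Ezr without Ti replicate 3. Over all 15376 genes tested, 1440 had an unadjusted p under 0.05 with the block, against 1039 without it. Of the 48 members tested, 10 did so with the block, against 7 without it. Zyx (zyxin) ranged from 13 to 29.91 CPM in Ti and from 7.91 to 17.64 CPM in PBS.

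Isoforms were tested in a fit across all annotated transcripts. Of the members' 369 annotated transcripts 213 were tested, and edgeR called 0 of them and 3 of all 41599 (0.00721%). At an unadjusted p under 0.05 there were 12, 8 higher and 4 lower in Ti, against 4.29% of all transcripts. The groups did not overlap for 28 of the 213, against 10.4% of all transcripts. DESeq2 called 4 member transcripts, Wipf1-203, Diaph2-202, Marcksl1-201 and Actn1-201, against 0.971% of all transcripts. Marcksl1-201 held all counts of its gene, and Actn1-201 had 194.8, 180.1 and 184.9 CPM in Ti, against 123.6, 124.3 and 111.3 CPM in PBS.

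**Figure D5:**
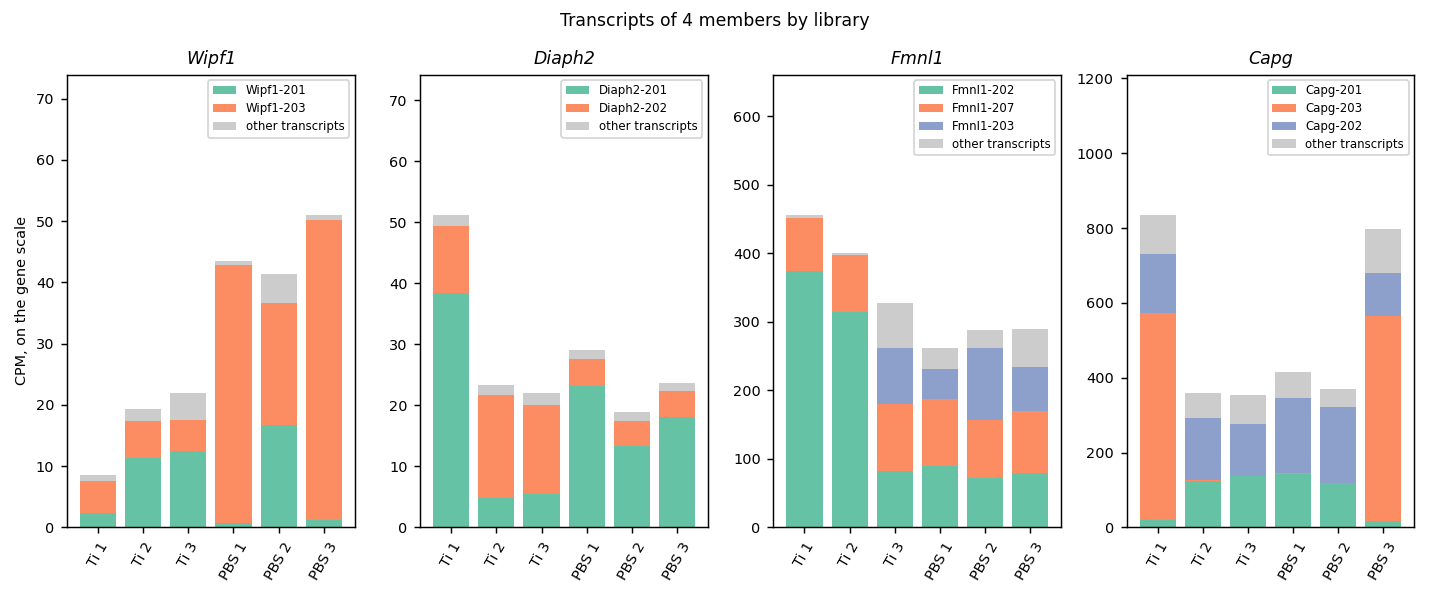
Stacked bars give the CPM of each transcript (vertical axes, from 0) of Wipf1, Diaph2, Fmnl1 and Capg in the 3 Ti libraries (left) and 3 PBS libraries (right). Wipf1-203 is near 5 CPM in all Ti libraries and at least 19.92 CPM in PBS, Diaph2-202 is at most 4.349 CPM in PBS, and Capg-203 makes up most of the bars of Ti replicate 1 and PBS replicate 3.

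A wider list of 78 further actin regulators (WAVE complex subunits, kinases, capping proteins, myosin light chains, adaptors and others) was set beside the members. Of these 74 were tested and edgeR called 0. At an unadjusted p under 0.05 it gave 5 higher and 2 lower in Ti, against 3.42% higher and 3.34% lower of all genes tested. DESeq2 called 2, Flii among them, against 1.9% of all genes. In that list 41 had positive and 33 negative log2 fold changes, with a median of 0.04.

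Plek (pleckstrin) had 364.3, 424.3 and 654.6 CPM in Ti, against 246.4, 253.9 and 350.9 CPM in PBS, and the groups did not overlap (log2 fold change 0.76 ± 0.26). Rock1, a kinase that promotes contraction, had 158.9, 169.1 and 160.9 CPM in Ti, against 117.6, 143.5 and 139.2 CPM in PBS (0.29 ± 0.11). Lima1, a filament-stabilising protein, had 29.46, 24.35 and 27.06 CPM in Ti, against 19.99, 21.72 and 21.64 CPM in PBS (0.35 ± 0.13). These 3 genes were higher in every Ti library, with edgeR adjusted p between 0.6349 and 0.6938. Flii, a gelsolin relative, had 2.339, 3.804 and 6.697 CPM in Ti, against 27.28, 35.04 and 5.728 CPM in PBS, and the groups overlapped because PBS replicate 3 was low (-2.40 ± 0.73). Myh10 was near the floor, at 0.2946 to 0.3327 CPM in Ti and 0.0997 to 0.1917 CPM in PBS.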

How the data were processed

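RNA of 3 Ti and 3 PBS libraries was compared. Each deposited table gives 187351 transcripts with an estimated count, stored as a whole number. The submitters' processing notes name HISAT2, StringTie and the build mm9 for the authors' steps. The transcript identifiers match GENCODE vM21, so coordinates here are GRCm38. How these tools were set is not given in the sources. The deposited values grew with genomic span, so each was scaled by the ratio of exonic to genomic length before the transcripts of a gene were added up and rounded. The 45489 assembled rows without a gene were left out of library sizes and tests.

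Tests used edgeR 4.0.16 (quasi-likelihood, TMM scaling, filterByExpr, Benjamini-Hochberg at 0.05 over all features) in R 4.3.3, checked on simulated data. The simulated counts were drawn independently for each library, so that check does not cover values shared by same-numbered libraries. DESeq2 1.42.0 was an alternative, as were other filters and scalings, other transcript sets, a replicate block and libraries left out. CPM are rescaled counts over TMM-scaled library sizes. SE is the log2 fold change over the square root of F.

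Same-numbered Ti and PBS libraries deviated together weakly from their group means (correlations 0.11, 0.144 and 0.266). Other pairs of a Ti and a PBS library gave -0.17 to 0.0402. Some transcripts crossed the numbers, such as Capg-203, which was high in Ti replicate 1 and PBS replicate 3. The labels name no pairing, so a pairing by number is not established. The values and p-values given are from the unpaired model unless a replicate block is named, and the paired model is an alternative. With that block edgeR called 0 genes, against 4 without it, and no member under either.

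Values per library are given for the 10 members with the smallest p, the 8 with the highest level per length, those with the largest change or highest level in each role group, and those not tested. Transcripts named are the 6 with the smallest p and those with at least 20% of a gene named for its p. Other members and transcripts were chosen after their values were seen. The members and lists were chosen with earlier results of these data known. Sequences are from RefSeq (GRCm38.p6) and GENCODE vM21. Some results on the members and on the wider list are not reported here.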

Additional observations from a re-analysis of the deposited data

How the results depend on the processing

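No alternative with edgeR called a member or a member transcript, and the median of the members stayed between -0.08 and 0. DESeq2 called 292 genes, 3 of them members, and 404 transcripts, 4 of them of members. Of all genes, 4 were called in the main analysis, 0 with the replicate block, 0 without both libraries numbered 3, 2 with protein-coding transcripts only, and 1 to 13 with 1 library left out. Of all transcripts, 3 were called in the main analysis, 9 without rescaling, 0 to 1 with 1 library left out, and 0 with DESeq2's size factors, no filter, a mean of at least 50 counts, the replicate block, or without both libraries numbered 3. The replicate block changed no call of a member.

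Of the alternatives for the named members, 385 kept direction and side of the threshold and 32 turned direction. The other 3 passed the threshold (Actn1, Marcksl1 and Wipf1 with DESeq2). The members that turned had differences near 0 or uneven libraries, except Diaph2. Its log2 fold change of 0.431 rested on Ti replicate 1 and was -0.078 without that library. Without both libraries numbered 3 the log2 fold change was 0.00093 for Actn4, -0.012 for Actr2, 0.606 for Capg, 0.096 for Coro1c, 0.06 for Pfn1, -0.051 for Vasp and -0.073 for Wasl. Actn4 also gave 0.00201 with DESeq2's size factors, 0.00206 with DESeq2, 0.00322 with a mean of at least 50 counts and 0.00368 with protein-coding transcripts only. Coro1c gave 0.219 with protein-coding transcripts only, Lcp1 -0.023 without rescaling, and Wasl -0.256 with the replicate block. The causes were not tested.

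With 1 library left out at a time, the log2 fold change ranged from -0.021 to 0.00646 for Actn4, -0.00248 to 0.075 for Actr2, -0.569 to 0.396 for Capg, -0.078 to 0.646 for Diaph2, -0.55 to 0.588 for Lcp1, -1.158 to 0.219 for Pfn1, -0.933 to 1.264 for Vasp and from -0.488 to 0.565 for Wasl. Among members that kept their direction, it ranged from -1.182 to -0.08 for Coro1c, 0.201 to 0.898 for Tpm3, -0.489 to -0.119 for Cap1, -0.322 to -0.00247 for Cfl1, 0.191 to 0.396 for Actg1, 0.02 to 0.245 for Actb and 0.065 to 0.258 for Msn.

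With 3 libraries a group, the 95% interval of the unpaired model reached beyond 1 log2 unit from 0 for 14 of the 48 members. The same held for 6860 of the 15376 genes tested. For Lcp1, Vasp and Wasl, uneven in the same way in both groups, the replicate block gave 0.074 ± 0.069, 0.199 ± 0.17 and -0.256 ± 0.264, and Lcp1 without both libraries numbered 3 gave 0.018 ± 0.067. The split of reads between transcripts comes from the authors' estimate and has no error of its own here.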
